A study of Mus musculus with 90 samples.

Results

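The 6 genes Ttr, Folr1, Clic6, Kl, Otx2 and Sostdc1, all known as genes of the choroid plexus epithelium, were chosen by name and found in the expression matrix by their Entrez Gene identifiers (22139, 14275, 209195, 16591, 18424 and 66042, in this order). They are 6 of the 20414 genes listed. The matrix holds 90 libraries of total RNA from female mice, C57BL/6 and 10 weeks old by the labels (C57BL/6J and a lower age in the study's methods), with 3 libraries from estrus and 3 from diestrus for each of 15 tissues. The phase of each mouse was read from methylene blue staining of vaginal secretions, followed daily, with serum estrogen and progesterone measured as an aid. Tissues were frozen on dry ice. The 15 tissues of a phase came from the same 3 mice by the study's methods, although the labels do not say which libraries share a mouse. The choroid plexus itself was not among the labelled tissues.

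The choroid plexus is a sheet of epithelium inside the brain ventricles that secretes cerebrospinal fluid and passes nutrients and hormones from blood into it. Transthyretin, the product of Ttr, carries thyroxine and retinol-binding protein, and is made by choroid plexus and liver. Folr1 encodes folate receptor alpha, which carries folate into cerebrospinal fluid, and Kl encodes klotho, the co-receptor of FGF23, which kidney also makes. Clic6 belongs to the family of chloride intracellular channels, Sostdc1 encodes a secreted antagonist of BMP and Wnt signals, and Otx2 encodes a homeobox transcription factor that choroid plexus development needs.

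Levels are given as FPKM, the number of fragments set against transcript length and library size, so that levels of different genes may be put side by side. An approximation from the steps between low values gave 12.8 to 16.5M fragments in each of the 24 libraries of cerebrum, hypothalamus, liver and kidney, and 0.0726M in brown adipose tissue estrus 3, where a value near 0 says little. Region labels and marker genes went together: the 6 cortex genes summed to 166 to 284 FPKM in cerebrum libraries and 4.70 to 15.7 FPKM in hypothalamus libraries, and the 8 hypothalamus genes to 2.79 to 33.8 and 1479 to 2005 FPKM. In bulk tissue, fewer cells of a type and less RNA per cell cannot be told apart.

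Over the 15 tissues, only Otx2 had its highest mean in the brain. The mean over the 6 libraries of a tissue was highest in liver for Ttr (4668 ± 633 FPKM, SD, n = 6), in kidney for Folr1 (205 ± 18.3 FPKM), Kl (163 ± 35.5 FPKM) and Sostdc1 (93.9 ± 9.34 FPKM), in stomach for Clic6 (167 ± 71.8 FPKM) and in hypothalamus for Otx2 (1.86 ± 0.434 FPKM). For Ttr, Folr1, Kl, Clic6 and Sostdc1 the libraries of this first tissue did not overlap with those of the second, whereas for Otx2 hypothalamus and cerebrum overlapped. Ttr had rank 15 among the 20414 genes in liver and rank 148 in cerebrum, while the best rank of the other members in a brain region was 8599, of Clic6 in hypothalamus.

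**Figure D1:**
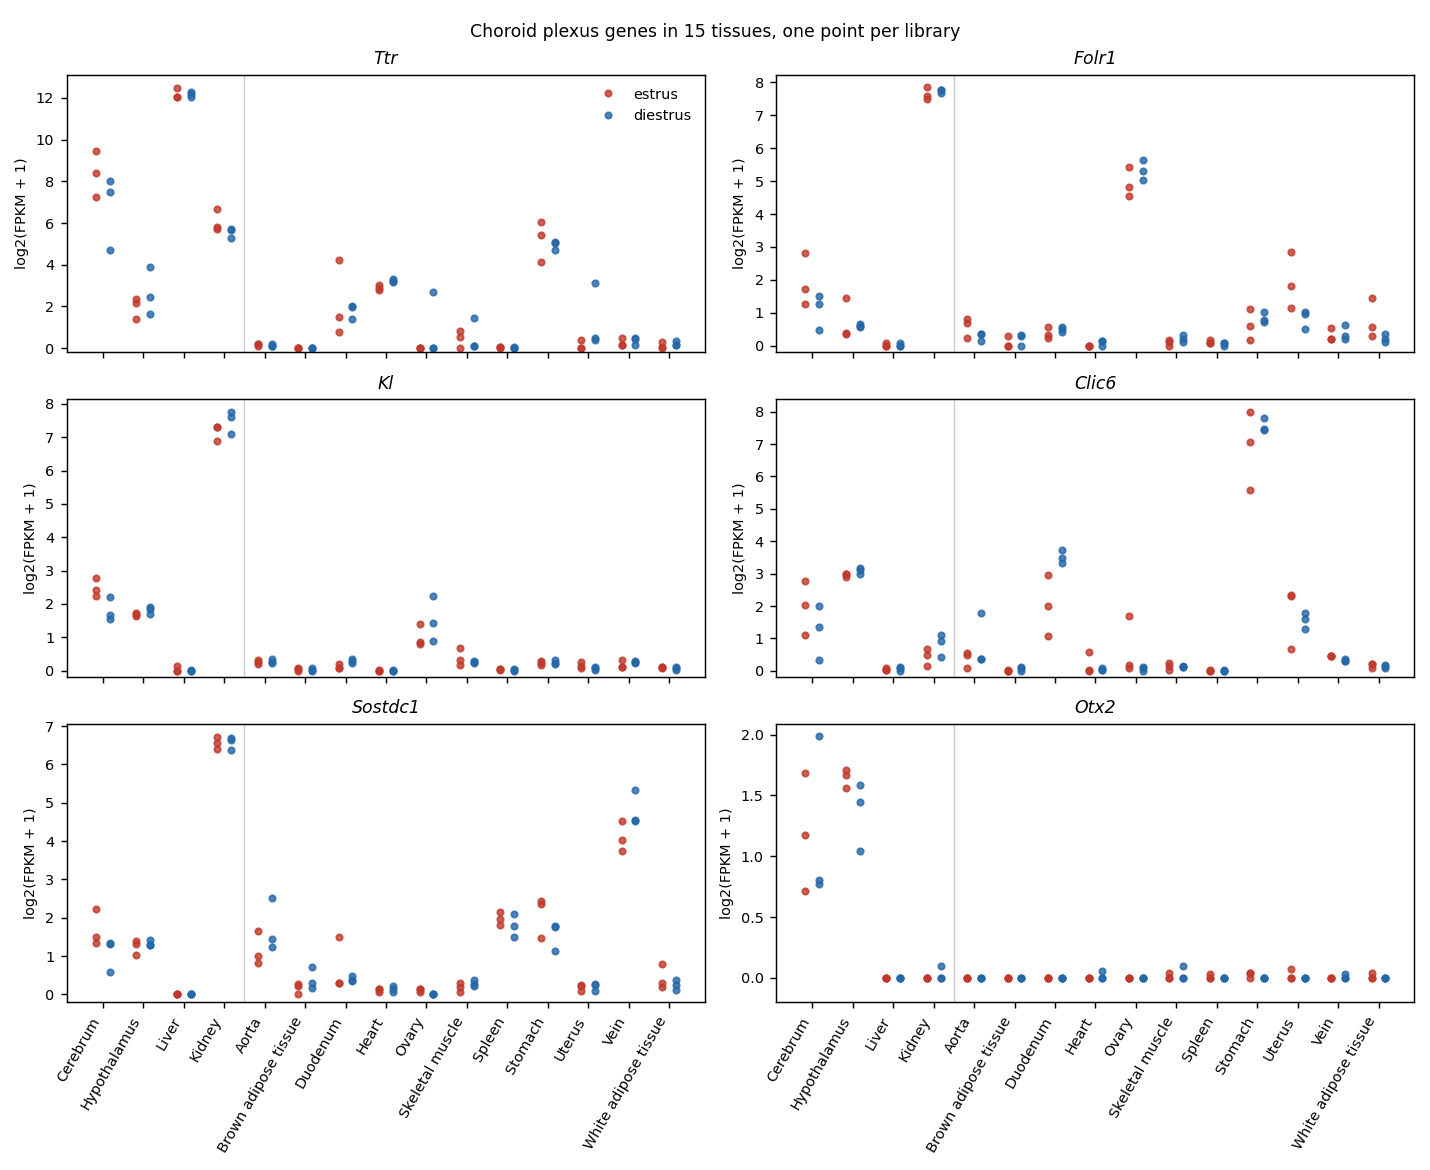
FPKM on the log2(FPKM + 1) scale (y axis) of each choroid plexus gene in 15 tissues (x axis), with 1 point per library, estrus red and diestrus blue; the line separates the first 4 tissues from the rest. Ttr is highest in liver, Folr1, Kl and Sostdc1 in kidney, Clic6 in stomach, and Otx2 lies near 0 outside cerebrum and hypothalamus.

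Down the order of tissues, Ttr went from liver to cerebrum (278 ± 238 FPKM, n = 6), kidney (58.0 ± 21.7), stomach (35.8 ± 16.9), heart (7.46 ± 1.12), hypothalamus (4.91 ± 4.47), duodenum (4.63 ± 6.38) and uterus, labelled womb (1.47 ± 3.10). From cerebrum on, the ranges of neighbours overlapped, except between stomach and heart. Folr1 followed kidney with ovary (35.3 ± 9.87 FPKM), which did not overlap with cerebrum (2.24 ± 1.99), and cerebrum overlapped with uterus (2.05 ± 2.12). Kl followed kidney with cerebrum (3.61 ± 1.46 FPKM), hypothalamus (2.37 ± 0.229) and ovary (1.58 ± 1.13), which overlapped in turn. Clic6 followed stomach with hypothalamus (7.18 ± 0.619 FPKM), duodenum (7.09 ± 4.34), cerebrum (2.48 ± 1.98) and uterus (2.43 ± 1.37), neighbours that overlapped. Sostdc1 had vein (22.2 ± 9.43 FPKM) in the second place without overlap with spleen (2.73 ± 0.580), and spleen, stomach, aorta, cerebrum and hypothalamus overlapped from one to the next. Otx2 was above 0.07 FPKM in no library outside the brain.

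By tissue profile over the 30 means of tissue and phase, the genes most like each member, given with Pearson's r as a description over points that share libraries, were Ido2 for Ttr (r = 0.848), Akr1c18 for Folr1 (0.964), Slc22a6 for Kl (0.982), Ghrl for Clic6 (0.938), Insrr for Sostdc1 (0.966) and Hapln2 for Otx2 (0.997). Slc22a6, with Slc22a8 the closest to Kl, is an organic anion transporter of the kidney tubule, and Ghrl encodes ghrelin, a stomach hormone. The next places went to Elovl2 and Glt1d1 for Ttr, Tmem72 and Col4a4 for Folr1, Ern2 and Mcpt1 for Clic6, Tfap2b and Fxyd2 for Sostdc1, Slc22a8 and Rhcg for Kl, and Slc39a12 and Mog for Otx2, Mog being a myelin gene.

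The question put to both brain regions was how they differ in choroid plexus genes, and how far the libraries of a region vary among themselves. Ttr and Clic6 passed the test between the regions in opposite directions: Ttr was lower in hypothalamus and Clic6 was higher there. Folr1 and Kl were lower in hypothalamus by less than the limit on the fold, and Sostdc1 and Otx2 did not pass.

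Ttr in the cerebrum measured 150, 340 and 713 FPKM in estrus 1 to 3 and 178, 260 and 25.0 FPKM in diestrus 1 to 3. In the hypothalamus it measured 4.10, 3.45 and 1.65 FPKM in estrus and 2.08, 13.8 and 4.41 FPKM in diestrus. The lowest cerebrum library was above the highest of hypothalamus, and the mean of cerebrum was 56.6-fold that of hypothalamus. With limma on log2(FPKM + 1) and the phase as a covariate, the difference of hypothalamus minus cerebrum was −5.25 (SE 0.66, adjusted p = 1.35e-05), with an exact permutation p of 0.00216 (two-sided), the smallest that 6 against 6 libraries can give. This fold change, like all others here, is on the log2(FPKM + 1) scale, which understates changes of low genes. The test treats the libraries of both regions as independent, though they come from the same mice. Without single libraries the difference ranged from −5.83 to −4.88.

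Clic6 measured 1.13, 3.10 and 5.84 FPKM in cerebrum estrus and 2.97, 1.54 and 0.27 FPKM in cerebrum diestrus. In hypothalamus it measured 6.38, 6.95 and 6.95 FPKM in estrus and 7.74, 6.96 and 8.08 FPKM in diestrus. All hypothalamus libraries were above all cerebrum libraries, with a ratio of means of 2.90 and a log2 difference of 1.43 (SE 0.31, adjusted p = 0.00106 by limma; exact permutation p = 0.00216). Thus 2 of the 6 members were called, 1 in each direction, a call being an adjusted p no higher than 0.05 together with a log2 difference of 1 or more in either direction. Over all 13280 genes tested, 8.98% were called, 4.73% higher and 4.25% lower in hypothalamus, and the median difference of all genes was 0.17. The regions did not overlap for 50.2% of these genes, 36.4% with hypothalamus higher and 13.8% with cerebrum higher.

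Folr1 in cerebrum measured 1.41, 2.30 and 6.09 FPKM in estrus and 1.43, 1.83 and 0.40 FPKM in diestrus, against 0.32, 1.73 and 0.28 FPKM and 0.58, 0.49 and 0.52 FPKM in hypothalamus. The regions overlapped, and the log2 difference of −0.84 (SE 0.29, adjusted p = 0.0201 by limma) missed the limit on the fold (exact permutation p = 0.0433). Folr1 reached the mean of 1 FPKM needed for the test through cerebrum, since its hypothalamus mean was 0.653 FPKM, so the test holds a gene admitted by the region where it is high. Leaving out cerebrum diestrus 3, the lowest cerebrum library, brought Folr1 to −1.01 (adjusted p = 0.00598), which is a call. Hypothalamus estrus 2, with the highest Folr1 of its region, also had the highest summed pituitary genes (31940 FPKM against 42.8 to 400 FPKM in the other 5 hypothalamus libraries), whose part in the Folr1 value was not tested.

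Kl in cerebrum measured 4.30, 3.76 and 5.91 FPKM in estrus and 2.18, 3.57 and 1.92 FPKM in diestrus, against 2.13, 2.24 and 2.28 FPKM and 2.26, 2.58 and 2.72 FPKM in hypothalamus. Its log2 difference was −0.39 (SE 0.16, adjusted p = 0.0437 by limma; exact permutation p = 0.0649), and the adjusted p moved between 0.0112 and 0.096 as single libraries were left out. Sostdc1 measured 1.82, 1.53 and 3.70 FPKM in cerebrum estrus and 1.48, 1.52 and 0.50 FPKM in cerebrum diestrus, and between 1.05 and 1.67 FPKM in hypothalamus, with a log2 difference of −0.10 (SE 0.19, adjusted p = 0.667; exact permutation p = 0.628).

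Otx2 measured 0.64, 1.26 and 2.22 FPKM in cerebrum estrus and 0.75, 0.71 and 2.96 FPKM in cerebrum diestrus, and 2.26, 2.17 and 1.95 FPKM and 1.72, 2.00 and 1.06 FPKM in the same phases of hypothalamus. Its log2 difference of 0.31 (SE 0.22, adjusted p = 0.216; exact permutation p = 0.225) did not pass. OTX factors bind a short motif, TAATCC, which was searched for on both strands of windows of 300 bases around gene starts (250 before and 50 after) in RefSeq sequence of build GRCm38.p6. Windows of 2 of the 6 members are reported, 1 of Kl and 4 of Otx2. Any member windows on 1 chromosome were set aside, while windows there stayed among all windows. Nothing is said about the motif at the starts of the other 4 members. One of these 5 windows held the motif, on the strand opposite to the gene, where 7.06% of all 32851 windows of that length held it on either strand. It lies upstream of an Otx2 start, and the 100 bases around it, chr14:48665260-48665359 on the minus strand, are shown because Otx2 is itself such a factor, with the motif's reverse complement GGATTA in capitals.
Otx2: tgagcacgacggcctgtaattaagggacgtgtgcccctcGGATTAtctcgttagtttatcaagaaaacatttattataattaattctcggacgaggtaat
A match is a description of these letters only.

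**Figure D2:**
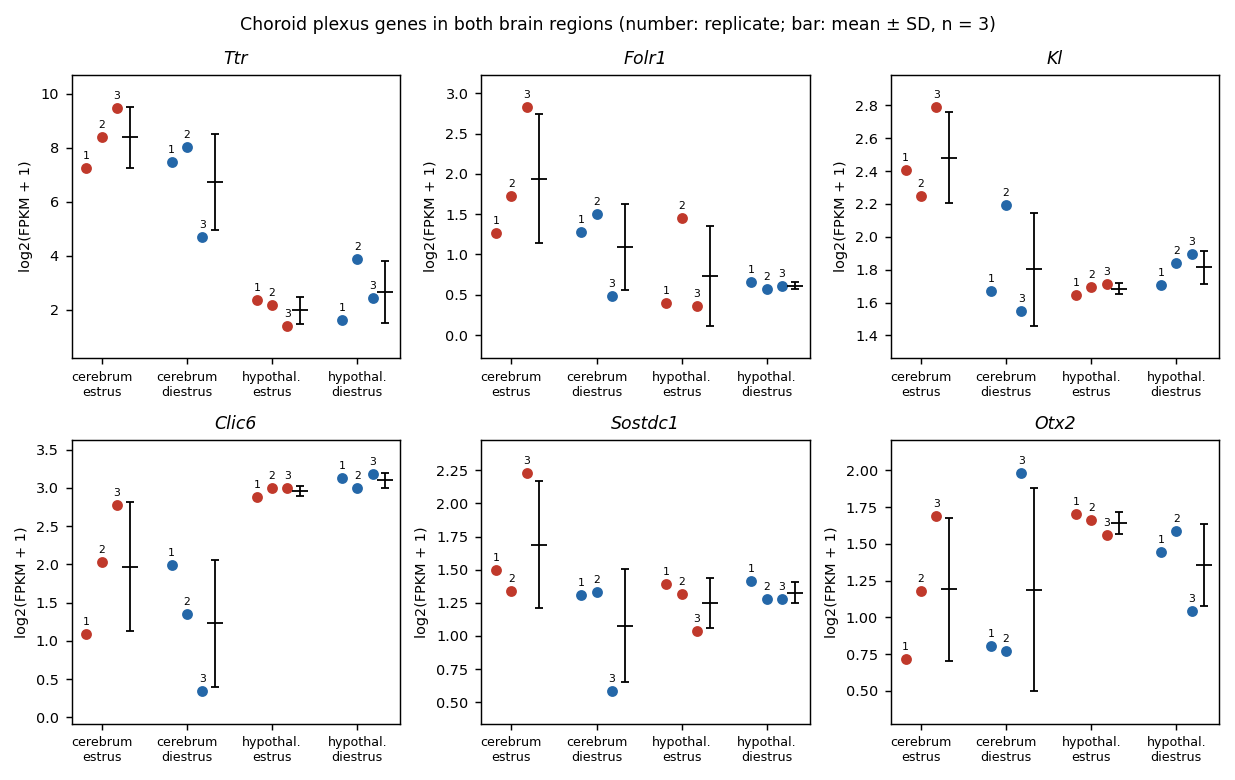
FPKM on the log2(FPKM + 1) scale (y axis) of the 6 choroid plexus genes in cerebrum and hypothalamus by phase (x axis); numbers give the replicate, bars the mean ± SD over n = 3 libraries, and each panel has its own scale that need not start at 0. Ttr and Clic6 do not overlap between the regions, and the cerebrum points span a wider range than the hypothalamus points for all 6 genes.

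The cerebrum libraries differed from each other in these genes more than in most. Ttr spanned 25.0 to 713 FPKM, 28.5-fold from the lowest to the highest library. Its range of 4.78 on the log2(FPKM + 1) scale was reached by 3 of the 12951 genes tested in cerebrum (0.0232%), Ttr among them, and the other 2, named after their values were seen, were the pituitary hormone genes Prl and Gh. The median range of all genes was 0.329. A range as large as that of Clic6 was found for 0.378% of genes, as that of Folr1 for 0.448%, of Sostdc1 for 1.30%, of Otx2 for 2.66% and of Kl for 2.84%. In hypothalamus the corresponding shares were 0.209% for Ttr, 4.96% for Otx2, 19.2% for Sostdc1, 32.0% for Clic6 and 44.9% for Kl, while Folr1 was below the filter there.

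**Figure D3:**
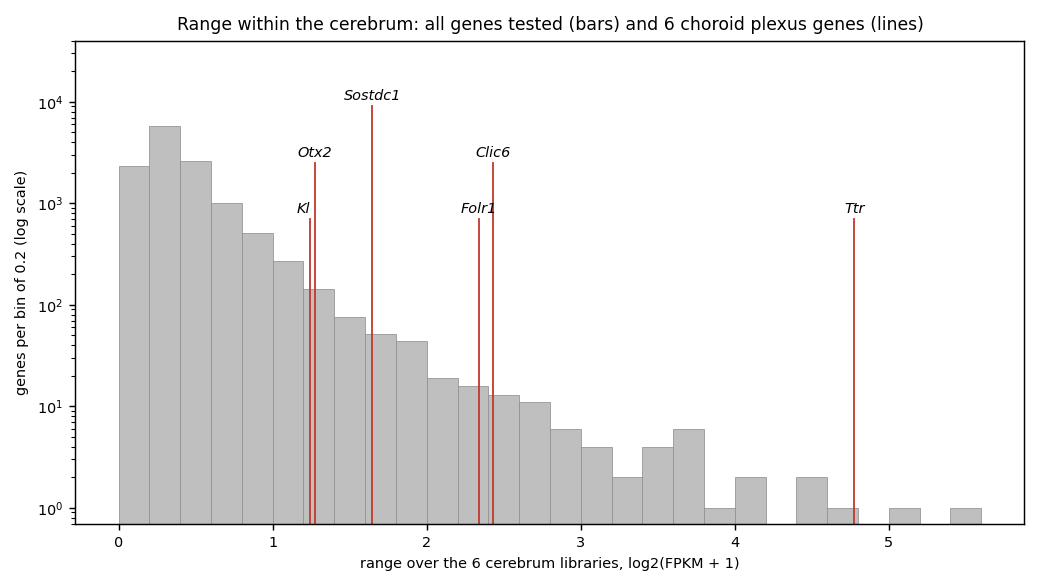
Number of genes (y axis, log scale) by their range over the 6 cerebrum libraries (x axis, log2(FPKM + 1), bins of 0.2); bars hold all 12951 genes tested and lines mark the 6 choroid plexus genes. Ttr stands near the right end at 4.78, and the other 5 lie between 1.24 and 2.43, above the median range of 0.329.

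Which library was high or low was shared among 5 members. Cerebrum estrus 3 was the highest of the 6 libraries for Ttr, Folr1, Clic6, Kl and Sostdc1, and cerebrum diestrus 3 was the lowest for the same 5. Otx2 went the other way in diestrus 3, where it had its highest cerebrum value of 2.96 FPKM, and its lowest of 0.64 FPKM was in estrus 1. Of the other 41 choroid plexus genes listed, 26 had a mean of at least 1 FPKM in cerebrum, and estrus 3 was the highest library for 22 of these (84.6%) against 28.8% of all genes tested. Diestrus 3 was the lowest for 10 of the 26 (38.5%), against 9.06% of all genes. Among them, Ecrg4, a secreted peptide precursor gene, measured 2.19, 5.57 and 8.23 FPKM in estrus and 1.82, 3.14 and 0.43 FPKM in diestrus. Kcne2, a potassium channel subunit gene chosen after its values were seen, measured 0.71, 2.66 and 3.94 FPKM in estrus and 0.82, 0.93 and 0.18 FPKM in diestrus, so the same libraries were highest and lowest.

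**Figure D4:**
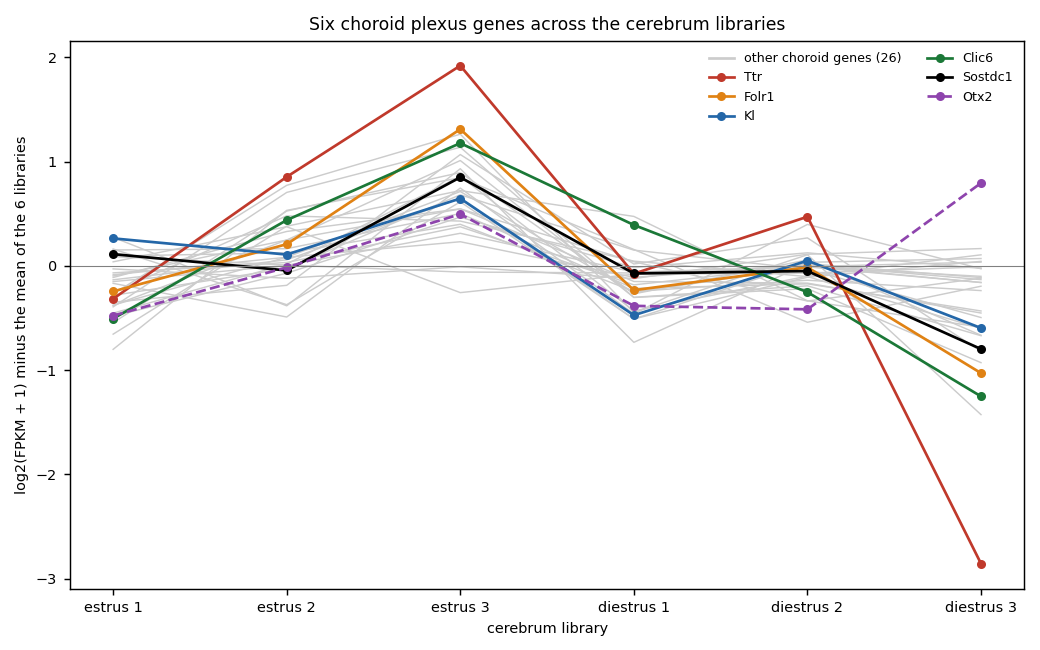
Difference from the mean over the 6 cerebrum libraries, on the log2(FPKM + 1) scale (y axis), in each library (x axis, lines only join the values of a gene); colours mark the 6 choroid plexus genes and grey 26 other choroid genes. All 6 lie above their mean in estrus 3, and in diestrus 3 Ttr, Folr1, Clic6, Kl and Sostdc1 lie below and Otx2 above.

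Markers of neighbouring tissues also differed among these libraries. The 15 ependymal and ciliated cell genes summed to 42.7 FPKM in cerebrum estrus 3 and 15.4 FPKM in diestrus 3, the highest and the lowest cerebrum sums of the ependymal and ciliated cells list. The 13 meninges genes summed to 1331 FPKM in estrus 3 and to 1075 FPKM in diestrus 3, the 2 highest of the cerebrum. Summed pituitary genes were highest in estrus 2 with 395 FPKM, against 12.8 to 93.6 FPKM in the other cerebrum libraries. The part of these tissues in the values of the members was not tested. In hypothalamus all 15 ependymal and ciliated cell genes had a mean of at least 1 FPKM, their sum was 103 to 151 FPKM, above every cerebrum library, and 13 of 13 tested were called higher than in cerebrum. Of these 13, 4 had a mean under 1 FPKM in cerebrum and entered the test through hypothalamus alone, so part of this count follows from the filter.

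The ratio of Ttr to each other member was set out by library. In cerebrum Ttr over Folr1 was 107, 148 and 117 in estrus and 124, 142 and 62.5 in diestrus, while Ttr itself moved 28.5-fold. Ttr over Clic6 ranged from 59.9 to 169, Ttr over Sostdc1 from 50 to 222 and Ttr over Kl from 13.0 to 121, the last a wider span than the 3.08-fold of Kl itself. Ttr over Otx2 ranged from 235 to 367 in 5 libraries, with 8.45 in diestrus 3. In hypothalamus Ttr over Folr1 ranged from 1.99 to 28.1 and Ttr over Clic6 from 0.237 to 1.98. In kidney Ttr over Folr1 was 0.186 to 0.441, and in stomach Ttr over Clic6 was 0.143 to 0.353.

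Over the 6 cerebrum libraries Ttr and Folr1 had a Pearson's r of 0.93 (exact permutation p = 0.0236, adjusted p = 0.118 over the 30 relations of both regions) and a Spearman's rho of 1 (exact permutation p = 0.00278, adjusted p = 0.0417), and r stayed at 0.978 without the 2 libraries farthest from the median of Ttr. Kl and Sostdc1 had r = 0.885 (exact p = 0.00972, adjusted p = 0.118) and rho = 1 (exact p = 0.00278, adjusted p = 0.0417), with r = 0.689 without 2 libraries. No pair passed by Pearson's r, and these 2 of 15 cerebrum pairs passed by Spearman's rho, each measure being adjusted on its own. The permutations did not keep the phases apart. Since the phases did not overlap in cerebrum for Kl or for Sostdc1, the rho of this pair also holds their shared phase difference. Ttr and Clic6 had r = 0.911 and rho = 0.943 (exact p = 0.0125 and 0.0167, adjusted 0.118 and 0.125), and r fell to 0.495 without the 2 farthest libraries. Ttr with Sostdc1 had r = 0.905 and rho = 0.657 (exact p = 0.0597 and 0.175, adjusted 0.17 and 0.477), and r turned to −0.583 without the 2 libraries, so it rests on them. In hypothalamus no pair passed by either measure. The strongest there was Clic6 with Otx2, with r = −0.895 and rho = −0.899 (exact p = 0.00556 and 0.0278, adjusted 0.118 and 0.167), and r = −0.756 without 2 libraries.

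Over all 12 brain libraries, with each region centred on its own mean, the 10 genes most like the mean of the members were Phactr2 (r = 0.948), Prlr (0.936), Ccnd1 (0.934), Ecrg4 and Trim27 (both 0.915), Zfp618, Pdzrn4 and Ccnq (all 0.913), Cfap126 (0.912) and Eid2b (0.907), out of 13274 ranked without the members. Prlr, the prolactin receptor gene, and Ecrg4 are on the list of other choroid plexus genes, and Cfap126 on that of ciliated cells. Of the 10, 2 (Phactr2 and Trim27) were also among the top 10 over cerebrum alone and 0 over hypothalamus alone. Prlr measured 0.50 to 2.00 FPKM in cerebrum and 4.87 to 6.42 FPKM in hypothalamus.

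Of the 41 other choroid plexus genes, 25 were tested between the regions, and 3 were higher and 2 lower in hypothalamus, with a median log2 difference of 0.36 beside 0.17 for all genes. The 3 were Vat1l (2.58, SE 0.23, adjusted p = 7.09e-07 by limma), Prlr (1.68, SE 0.13, adjusted p = 1.50e-07) and Sulf1 (1.2, SE 0.22, adjusted p = 0.000374), and the 2 were Car12, a carbonic anhydrase gene (−2.06, SE 0.14, adjusted p = 6.58e-08), and the IGF-binding protein gene Igfbp2 (−1.02, SE 0.30, adjusted p = 0.00837). Enpp2, which encodes autotaxin, measured 63.2 to 135 FPKM in cerebrum and 54.5 to 67.1 FPKM in hypothalamus, and its difference of −0.64 stayed under the limit on the fold. Kcne2 stayed at or below 0.37 FPKM in every hypothalamus library.

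Of the 6 pathway lists of the members, 3 held called genes between the regions, where 8.98% of all genes were called. Of 15 genes of thyroid hormone and retinol carriage, 12 were tested and 2 were lower in hypothalamus, Crym, a thyroid hormone binding protein gene (−3.16, SE 0.37, adjusted p = 7.43e-06 by limma), and Dio2, the deiodinase that makes T3 from T4 (−2.04, SE 0.18, adjusted p = 5.70e-07), and the median of the 12 was −0.57 beside 0.17 for all genes. Of 16 Wnt and BMP antagonists and receptors, 12 were tested and 2 were lower, the BMP antagonist Chrd (−1.36, SE 0.21) and Dkk3 (−1.62, SE 0.21). Of 9 OTX factors and partners, 5 were tested and 1 was higher, the retina and hypothalamus homeobox gene Rax (1.46, SE 0.15), whose mean reached 1 FPKM in hypothalamus alone. None of the 10 tested of 19 FGF23 and klotho genes, of the 12 tested of 15 folate genes or of the 3 tested of 4 other CLIC genes was called in either direction, and 8, 9 and 2 of them had an unadjusted p under 0.05, as did 74.1% of all genes.

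Lists of other cell types and tissues were read in the same comparison. Of the tested genes, 4 of 6 pituitary genes, 2 of 5 hepatocyte genes (Apoc3 and Apoa2), 1 of 2 pancreatic islet genes (Chga), 8 of 8 hypothalamus genes and 2 of 8 neuron genes were higher in hypothalamus, while 6 of 6 cortex genes, 3 of 8 neuron genes and 1 of 6 astrocyte genes were lower. None of the tested genes of meninges (13), oligodendrocytes (6), pineal gland (1), pancreatic acini (1), distal (3) and proximal (2) kidney tubule and oviduct epithelium (3) was called, and no thyroid or parathyroid gene passed the filter. Of the called genes, 5 hypothalamus, 2 cortex and 2 pituitary genes and 1 hepatocyte gene had a mean under 1 FPKM in the other region, so their calls partly follow from the filter.

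Estrus was then compared with diestrus within each tissue, with genes of a mean of at least 1 FPKM over its 6 libraries. Of the 90 pairs of member and tissue, 30 passed this filter, 16 of them in cerebrum, hypothalamus, liver and kidney, and none of the 30 was called. In 11 of the 12 tissues with a member to test 0.0% of all genes were called by limma, and in spleen 0.00798%. In cerebrum, hypothalamus, liver and kidney no gene was called, and 389 of 12951 (3.00%) in cerebrum, 1771 of 13400 (13.2%) in hypothalamus, 597 of 10666 (5.60%) in liver and 357 of 12424 (2.87%) in kidney had an unadjusted p under 0.05. An exact permutation test of 3 against 3 libraries cannot go below 0.1. The phases did not overlap in 8 of the 30 pairs (26.7%), 4 with estrus higher and 4 with diestrus higher, against 13.3% of all gene tests in these tissues.

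In cerebrum, 5 members had a higher mean in estrus, and none passed. The log2 fold change of estrus over diestrus was 1.64 for Ttr (SE 0.92, adjusted p = 1 by limma), 0.85 for Folr1 (SE 0.43), 0.74 for Clic6 (SE 0.52), 0.68 for Kl (SE 0.21, unadjusted p = 0.0137), 0.61 for Sostdc1 (SE 0.29) and 0.00 for Otx2 (SE 0.38). The phases did not overlap for Kl, with 3.76 to 5.91 FPKM in estrus and 1.92 to 3.57 FPKM in diestrus, nor for Sostdc1, where 1.53 FPKM in estrus 2 stood next to 1.52 FPKM in diestrus 2. Absence of overlap with estrus higher was found for 4.92% of all cerebrum genes. Without estrus 3 the value of Ttr was 1.09 and without diestrus 3 it was 0.62, and Clic6 went to 0.34 and 0.30, so the sizes in cerebrum rest on these 2 libraries. Kl kept 0.53 and 0.55 in the same settings. Of the other 41 choroid plexus genes 26 were tested, none was called, 6 had an unadjusted p under 0.05 and 24 had a fold change above 0, with a median of 0.29 beside 0.02 for all genes. Other lists moved with these: 9 of 9 ependymal and ciliated cell genes (median 0.363) and 10 of 12 meninges genes had a fold change above 0. So did 6 of 6 oligodendrocyte, 4 of 4 pituitary (median 1.332) and 3 of 3 hypothalamus region genes (median 1.207). It was above 0 for 4 of 6 astrocyte and 2 of 8 neuron genes. Of cortex genes it was above 0 for 0 of 6 (median −0.362, 3 with an unadjusted p under 0.05). The part of these lists in the members' values was not tested.

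In hypothalamus, Clic6 was 6.38 to 6.95 FPKM in estrus and 6.96 to 8.08 FPKM in diestrus, without overlap, as for 9.64% of all hypothalamus genes with diestrus higher. Its log2 fold change was −0.15 (SE 0.07, adjusted p = 0.409 by limma). Ttr had −0.68 (SE 0.52), Kl −0.13 (SE 0.08), Sostdc1 −0.08 (SE 0.12) and Otx2 0.29 (SE 0.14), with adjusted p between 0.429 and 0.816. Folr1 was not tested here, since its mean was 0.653 FPKM. The difference of the phase effects, hypothalamus minus cerebrum, was called for no gene and 522 of 13280 (3.93%) had an unadjusted p under 0.05. It was −2.32 for Ttr (SE 1.2), −0.89 for Clic6 (SE 0.59), −0.81 for Kl (SE 0.24, unadjusted p = 0.00567), −0.73 for Folr1 (SE 0.57), −0.69 for Sostdc1 (SE 0.34) and 0.28 for Otx2 (SE 0.45), each with an adjusted p of 0.999.

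In liver Ttr measured 5792, 4281 and 4174 FPKM in estrus and 4976, 4169 and 4618 FPKM in diestrus. The phases overlapped, and the log2 fold change was 0.04 (SE 0.15, adjusted p = 0.978 by limma). The highest and lowest liver libraries differed 1.39-fold in Ttr, against 28.5-fold in cerebrum. The other 5 members were at or below 0.09 FPKM in all liver libraries, and Sostdc1 and Otx2 were listed at 0 in all 6. Rbp4, the gene of the retinol carrier that binds transthyretin, was looked up after other values were seen and measured 2296 to 3169 FPKM in the same libraries.

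In kidney Ttr measured 55.0, 101 and 52.3 FPKM in estrus and 38.0, 50.4 and 51.3 FPKM in diestrus. Estrus was higher without overlap, as for 4.25% of kidney genes, with 52.3 FPKM next to 51.3 FPKM, and the log2 fold change of 0.51 (SE 0.25, adjusted p = 1 by limma) did not pass. Folr1 measured 179, 228 and 189 FPKM in estrus and 204, 215 and 215 FPKM in diestrus (log2 fold change −0.09, SE 0.11). Kl measured 159, 156 and 118 FPKM in estrus and 214, 136 and 192 FPKM in diestrus (−0.31, SE 0.19). Sostdc1 measured 104, 83.3 and 93.3 FPKM in estrus and 99.0, 102 and 82.2 FPKM in diestrus (−0.01, SE 0.12). The phases overlapped for these 3 genes. Clic6 stayed between 0.11 and 1.15 FPKM, and Otx2 was listed at 0 in all kidney libraries but diestrus 3, at 0.07 FPKM. The difference of phase effects, kidney minus liver, was 0.47 for Ttr (SE 0.32, adjusted p = 1), and no gene was called, with 401 of 12346 (3.25%) at an unadjusted p under 0.05.

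Genes of the same pathways were measured in kidney at high levels. The phosphate transporter Slc34a1, which FGF23 and klotho control, measured 1904 to 2985 FPKM, the calcium-binding protein gene Calb1 93.7 to 300 FPKM, and the vitamin D receptor gene Vdr 49.5 to 74.3 FPKM. Of 19 FGF23 and klotho genes 17 were tested between the phases, none was called and 1 had an unadjusted p under 0.05. All 15 folate genes were tested with the same count. Lrp2, the receptor megalin of the proximal tubule, also named after its values were seen, measured 124 to 181 FPKM. The 8 kidney distal tubule and collecting duct genes summed to 2490 to 3144 FPKM and the 8 kidney proximal tubule genes to 4670 to 6670 FPKM, with overlap of the phases in both.

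**Figure D5:**
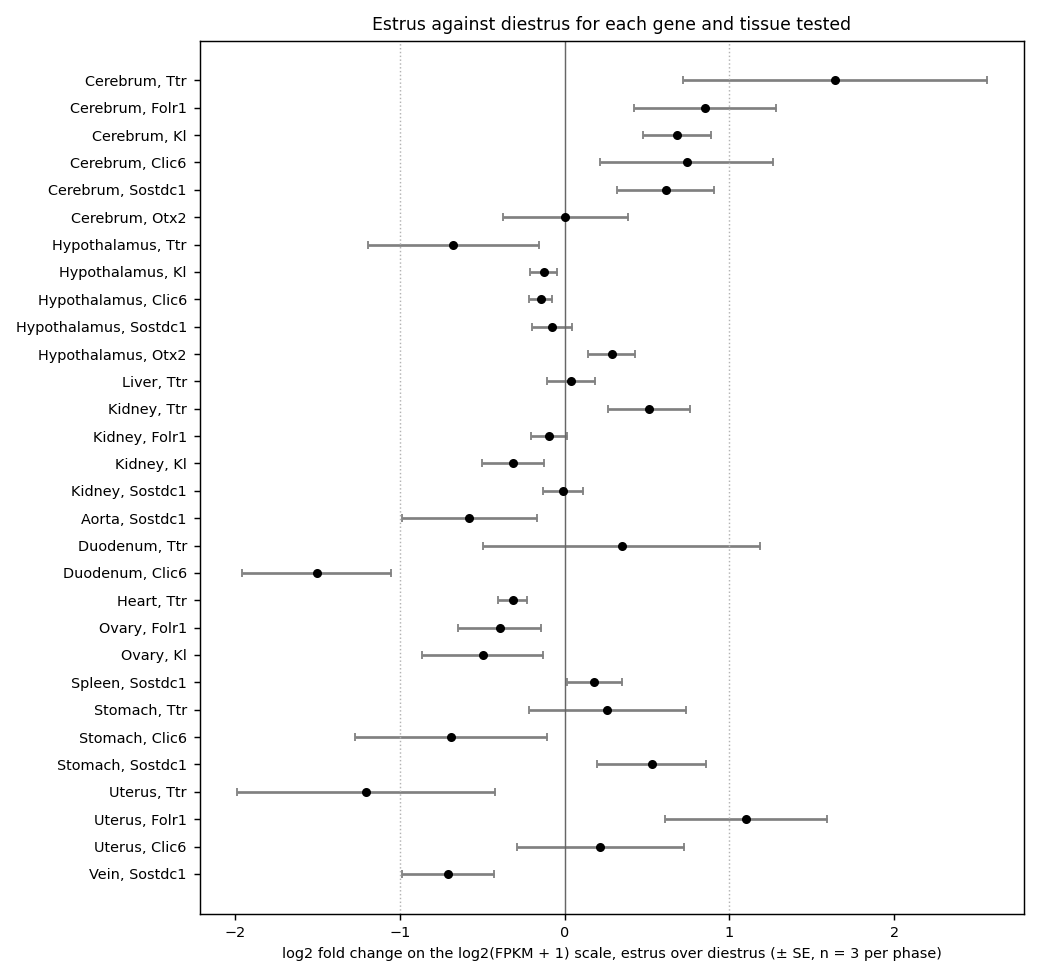
Log2 fold change of estrus over diestrus on the log2(FPKM + 1) scale (x axis, ± SE, n = 3 libraries per phase) for the 30 pairs of tissue and choroid plexus gene that passed the filter (y axis). Dotted lines mark the limit of 1; 4 pairs lie beyond it, Ttr in cerebrum, Clic6 in duodenum, and Ttr and Folr1 in uterus, and none had an adjusted p of at most 0.05.

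Of the other 11 tissues, 8 had a member to test, in 14 pairs. In duodenum Clic6 measured 3.01, 1.12 and 6.75 FPKM in estrus and 12.4, 10.2 and 9.04 FPKM in diestrus. Diestrus was higher without overlap, as for 22.1% of duodenum genes, and the log2 fold change was −1.51 (SE 0.45, adjusted p = 0.368 by limma) beside a median of −0.16 for all genes. In one fit of all 90 libraries, which shares the spread over tissues, its adjusted p was 0.00457, and that fit called 3.22% of 15226 genes in duodenum. Ttr in duodenum was 17.5, 0.69 and 1.84 FPKM in estrus and 3.13, 2.98 and 1.63 FPKM in diestrus, and its highest library, estrus 1, also had the highest summed pancreatic acini genes, 97.9 FPKM against 4.62 to 12.6 FPKM. Their part in the Ttr value was not tested.

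In uterus Folr1 measured 2.51, 1.23 and 6.14 FPKM in estrus and 0.95, 1.05 and 0.42 FPKM in diestrus. Estrus was higher without overlap, as for 3.25% of uterus genes, with a log2 fold change of 1.10 (SE 0.49, adjusted p = 0.897 by limma, and 0.00413 in one fit of all libraries, which called 4.73% of 15226 genes in uterus). Its mean was 3.29 FPKM in estrus and 0.807 FPKM in diestrus, so it entered the test through estrus, where it was high. The library with the highest Folr1, estrus 3, had 2767 FPKM of summed oviduct epithelium genes against 103 to 215 FPKM in the other 5 uterus libraries, and the part of oviduct tissue in Folr1 was not tested. Ttr in uterus was at or below 0.40 FPKM in 5 libraries and 7.79 FPKM in diestrus 3, which gave a fold change of −1.21 (SE 0.78) and alone brought Ttr past the filter. That library also had the highest summed kidney proximal tubule genes of the uterus, 91.7 FPKM against 4.39 to 60.9 FPKM. Only 2 of these 8 genes had a mean of at least 1 FPKM in uterus. Their sum was 4.39 to 13.8 FPKM in uterus estrus and 19.5 to 91.7 FPKM in uterus diestrus, and their part in the Ttr value was not tested.

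In ovary Folr1 measured 27.5, 22.4 and 42.2 FPKM in estrus and 31.8, 38.8 and 49.0 FPKM in diestrus (log2 fold change −0.39, SE 0.25), and Kl 0.75, 1.64 and 0.81 FPKM and 3.71, 0.86 and 1.69 FPKM (−0.50, SE 0.37). The phases overlapped for both. Ttr was listed at 0 in 5 ovary libraries and at 5.39 FPKM in diestrus 3. Alb, the albumin gene of hepatocytes, was 50.3 FPKM in that library and at most 0.09 FPKM in the other 5, and was looked up after the Ttr value was seen.

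In vein Sostdc1 measured 21.9, 12.4 and 15.2 FPKM in estrus and 22.4, 39.5 and 21.9 FPKM in diestrus, where 21.85 FPKM in estrus stood next to 21.91 FPKM in diestrus. The log2 fold change was −0.71 (SE 0.28, adjusted p = 0.412 by limma), and 12.9% of vein genes had diestrus higher without overlap. In heart Ttr measured 6.00, 7.15 and 6.49 FPKM in estrus and 7.89, 8.35 and 8.90 FPKM in diestrus, without overlap (log2 fold change −0.32, SE 0.09, unadjusted p = 0.00707, adjusted p = 0.792), as for 3.84% of heart genes with diestrus higher. Alb was 64.9 to 76.3 FPKM in heart estrus and 66.0 to 99.0 FPKM in heart diestrus, with overlap, and its part in the Ttr values was not tested. In stomach Clic6 measured 132, 252 and 47.3 FPKM in estrus and 176, 173 and 221 FPKM in diestrus (−0.69, SE 0.58), and estrus 3 was also the lowest stomach library for Ttr, at 16.7 FPKM. Summed pancreatic islets genes, a list that also marks endocrine cells of the stomach, were lowest in the same library, 76.1 FPKM against 226 to 423 FPKM in the other stomach libraries. The remaining 5 pairs, Ttr and Sostdc1 in stomach, Sostdc1 in aorta and spleen and Clic6 in uterus, had fold changes from −0.58 to 0.53 with overlap of the phases.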

How the data were processed

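RNA from 15 mouse tissues in 2 phases of the estrous cycle was sequenced in 90 libraries, 3 per tissue and phase. The authors filtered reads with SOAPnuke and, per the labels, used Bowtie2 2.2.5 and RSEM 1.2.8 with GRCm38. The deposited table names no unit and holds no counts. Its values were taken as FPKM from the authors' methods and the values themselves. Depth is an approximation, and whole reads were not recovered, since 54.3% to 69.7% of low values came out whole to within 0.2 reads. Symbols come from RefSeq (GRCm38.p6) by Entrez Gene identifier, for 20265 of 20414 genes.

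Log2(FPKM + 1) values were fitted in limma 3.58.1 (R 4.3.3, trend on intensity) after dropping genes whose mean was under 1 FPKM in the libraries compared, with Benjamini-Hochberg adjustment over all genes of a fit. Phases were compared within tissues, regions with the phase as a covariate, and differences of phase effects as an interaction. The limits for a call (1 on the log2 scale, 0.05 for the adjusted p) are those of the study. The study applied them with another test, DEGSeq, and reported differentially expressed genes in each tissue. Counts of called genes here are therefore not on the same footing as those of the study. The fits were tested on simulated data. Single genes were also compared by two-sided exact permutation tests. Python 3.11.15 with numpy 2.4.6, pandas 2.3.3, scipy 1.17.1 and matplotlib 3.10.9 did the rest.

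p-values measure the spread between these libraries of 3 mice per phase. The members and the gene lists were chosen with earlier results of these data known. Named genes were the members, called genes of the lists and up to the 5 most abundant of a list, the 10 genes most like the members over the brain libraries and the 3 most like each member over tissues; others are named as chosen after their values were seen. Lists covered other choroid plexus genes, 6 pathways of the members, and markers of neighbouring brain tissue, brain cell types and regions, liver, pancreas, kidney, oviduct, thyroid and parathyroid. Alternatives covered the pseudocount, the filter, median centring, the trend, one fit of all libraries, the replicate block, single libraries left out and rank correlation.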

Additional observations from a re-analysis of the deposited data

Results flagged for a closer look

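In 3 of the 12 groups formed by a member and a brain region, 1 of 6 libraries stood apart by Dixon's criterion (gap over range above 0.625). The criterion was taken on FPKM and not on the log2(FPKM + 1) scale. For normally distributed values chance gives this in about 1 of 20 groups. FPKM need not follow that form, so this share cannot be set against the 3 groups. Folr1 in cerebrum was 6.09 FPKM in estrus replicate 3, with a gap of 0.666 of the range. Ttr in hypothalamus was 13.75 FPKM in diestrus replicate 2, with a gap of 0.772 of the range. Folr1 in hypothalamus was 1.73 FPKM in estrus replicate 2, with a gap of 0.793 of the range.

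Among members whose phases did not overlap in a tissue, 2 had opposite directions in different tissues, and neither difference was tested. Every estrus library of kidney was above every diestrus library in Ttr (log2 fold change 0.51), and every one of heart was below (−0.32). For Sostdc1, every estrus library of cerebrum was above every diestrus library (0.61), and every one of vein was below (−0.71). The nearest estrus and diestrus libraries were 52.29 and 51.34 FPKM for Ttr in kidney and 7.15 and 7.89 FPKM in heart. For Sostdc1 they were 1.53 and 1.52 FPKM in cerebrum and 21.85 and 21.91 FPKM in vein. Phases did not overlap in 13.3% of all gene tests in tissues with a member tested, and none of these fold changes was called.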

How the results depend on the processing

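Leaving out single libraries, changing the pseudocount to 0.1, dropping the filter, median centring, dropping the trend and adding the replicate block kept both calls between the regions, Ttr and Clic6, and made no member called between the phases. One fit of all libraries called 1 member in duodenum (Clic6) and 1 in uterus (Folr1), and 5 genes in cerebrum, 2 in hypothalamus, 2 in kidney and 5 in liver, where separate fits called 0; in duodenum and uterus it called 490 and 720 genes. With a pseudocount of 0.1 Folr1 was also called between the regions (−1.47, adjusted p = 0.0178 by limma).

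Single libraries left out gave 0 to 4 genes called in hypothalamus (4 without estrus replicate 2), 0 to 1 in each of liver, aorta, heart and stomach, 0 to 10 in duodenum (10 without estrus replicate 1), 0 to 4 in ovary (4 without estrus replicate 3), 0 to 2 in uterus (2 without estrus replicate 2), 0 to 1 for kidney minus liver, and 2 to 3 members and 1159 to 1249 genes called between the regions, against 1193 with all libraries. The cause was not tested. Fold changes that changed sign without single libraries, none of them called, ranged from −0.24 to 0.40 for Otx2 and from −0.11 to 0.12 for Ttr in cerebrum and liver respectively, from −0.68 to 1.05 for Ttr in duodenum, from −0.17 to 0.79 for Ttr in stomach, from −0.15 to 0.0294 for Sostdc1 in hypothalamus, from −0.11 to 0.0663 for Sostdc1 in kidney and for kidney minus liver, from −0.0659 to 0.76 for Clic6 in uterus, from −0.24 to 0.064 for Sostdc1 between the regions, and from −0.12 to 0.53 for Otx2 in hypothalamus minus cerebrum. Otx2 in cerebrum was −0.0144 with median centring, which moved the median of all genes between the regions from 0.171 to 0.0421.

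By Spearman's rho 2 cerebrum pairs of members passed and Ttr with Otx2 had a rho of 0.086 against an r of −0.314, which was 0.821 without the 2 farthest libraries, where Ttr with Sostdc1 had −0.583. The 10 genes most like the members shared 2 with cerebrum alone and 0 with hypothalamus alone. Without both cerebrum libraries of the highest and the lowest Ttr, chosen after seeing the data, Ttr was −5.48 and Clic6 1.41 between the regions, both still called.

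A replicate block gave 1195 genes called between the regions and 0 members between the phases, and no call of a member changed. Same-numbered cerebrum and hypothalamus libraries had correlations of their deviations of 0.078, 0.078 and 0.019 in estrus and 0.128, 0.203 and 0.221 in diestrus. Not every pair was over 0.1 and the labels do not tie a number to a mouse, so numbers were not taken as pairs, although shared mice between the regions cannot be told from these values. Ttr in uterus has no value without diestrus replicate 3, where its mean is under the filter. FPKM holds no counts, so precision at low levels is limited by an unknown number of reads.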
